A study of Mus musculus with 4 samples.

Results

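The genes of megakaryocytes and platelets considered here are 32 genes, chosen by name, that encode platelet receptors, granule proteins, enzymes, cytoskeletal proteins and 2 transcription factors. Of these, 29 had a probe set that the platform annotation assigned to them alone, out of 18193 genes with such a probe set. Where a gene had several, the brightest by mean signal over all arrays stood for it. Bin2, Gp1ba and Ptgs1 were not analysed here. The samples were livers of C57BL/6 (B6) mouse fetuses at gestation day 17, 2 wildtype and 2 Sox17+/-, with 1 single-colour Affymetrix array each. Sox17+/- fetuses carry 1 altered copy of Sox17, a transcription factor of endoderm and arterial endothelium, in every cell. Fetuses of both genotypes came from matings of C57BL6 females with Sox17+/- males of that strain, and the liver was separated from the biliary system. No label says if a replicate came from a single fetus or from several. The spread below is between 2 samples a genotype and may be partly technical. The comparison asks which of these transcripts differ between the livers of heterozygous and wildtype fetuses.

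Megakaryocytes are the large bone marrow and fetal liver cells that shed platelets. In the fetus the liver is the main site of blood formation, so megakaryocytes mature there beside erythroid and myeloid cells. Thrombopoietin and its receptor drive their growth, factors of the GATA, ETS and RUNX families and Gfi1b direct their genes, and the finished platelet carries receptors for von Willebrand factor, fibrinogen, collagen, thrombin, ADP and thromboxane. Some of the 32 genes are, as background, largely limited to this lineage among the cells of the liver. These were taken as a restricted set of 11 genes, Itga2b, Gp1ba, Gp1bb, Gp5, Gp9, Gp6, Pf4, Ppbp, Treml1, Tubb1 and F2rl2. The others are also made by macrophages, endothelium, erythroid cells, hepatocytes or further cells.

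The livers of heterozygous fetuses had slightly lower signals of the restricted genes. All 10 restricted genes with a probe set had a lower mean in Sox17+/- liver, at 0.679 to 0.899 of the wildtype mean (median 0.817, n = 2 each). For 8 of the 10, both Sox17+/- arrays lay below both wildtype arrays, against a background of 18.6% of the tested genes. The restricted set was chosen with earlier results of these data known, and its genes, largely of the same lineage, are not independent readings. None of the 27 genes tested passed the limma test after Benjamini-Hochberg adjustment over all probe sets, the adjusted p being 0.9999 for each. Of the 22519 probe sets tested, 0 passed as higher (0%) and 0 as lower (0%), and at an unadjusted p under 0.05 the limma counts were 402 and 521. In whole tissue, fewer megakaryocytes, less RNA per megakaryocyte and variation between the 2 samples of a genotype cannot be told apart. With 2 arrays against 2, the number of arrays limits the precision, and an exact permutation test cannot give a two-sided p below 0.333.

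Promoters of 4 restricted genes are shown because the lineage is known for promoters with paired GATA and ETS motifs. The 10 restricted genes with a probe set all had lower means, and Gp1ba was not analysed. A link between motifs and signals was not tested. RefSeq windows (GRCm38.p6, 250 bases before to 50 bases after the start) were found for 27 of the 32 genes, 29 windows in all. Of the members, Bin2, Fli1, Itgb3, Rgs18 and Thbs1 had no entry. Both strands were searched for letters of the GATA type, which were AGATAA or else the variant TGATAA. For the ETS type the letters were AGGAAG or else the variant CCGGAAG. Matches of different motifs did not overlap each other in these 4 windows. The 4 windows below, in the direction of the gene and with matches in capitals, belong to a granule chemokine, the fibrinogen receptor subunit and 2 subunits of the von Willebrand factor receptor. They were chosen after the matches were seen.
Pf4, chr5:90772185-90772484, plus strand: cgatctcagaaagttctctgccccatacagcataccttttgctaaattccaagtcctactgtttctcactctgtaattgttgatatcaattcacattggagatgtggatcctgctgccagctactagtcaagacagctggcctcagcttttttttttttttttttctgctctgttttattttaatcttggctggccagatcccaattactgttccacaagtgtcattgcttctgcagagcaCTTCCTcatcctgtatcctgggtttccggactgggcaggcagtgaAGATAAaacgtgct
Itga2b, chr11:102469834-102470133, minus strand: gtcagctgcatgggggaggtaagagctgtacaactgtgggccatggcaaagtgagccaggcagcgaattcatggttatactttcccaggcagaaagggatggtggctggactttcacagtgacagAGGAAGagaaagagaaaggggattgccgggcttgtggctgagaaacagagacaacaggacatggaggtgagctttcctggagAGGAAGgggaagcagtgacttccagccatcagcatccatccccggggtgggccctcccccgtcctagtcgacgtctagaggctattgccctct
Gp9, chr6:87777820-87778119, plus strand: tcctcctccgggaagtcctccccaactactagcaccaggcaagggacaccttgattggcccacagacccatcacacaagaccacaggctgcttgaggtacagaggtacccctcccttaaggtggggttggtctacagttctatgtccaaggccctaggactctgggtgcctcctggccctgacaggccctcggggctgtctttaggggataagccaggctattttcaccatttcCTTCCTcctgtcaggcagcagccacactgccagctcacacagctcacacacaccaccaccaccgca
Gp5, chr16:30310732-30311031, minus strand: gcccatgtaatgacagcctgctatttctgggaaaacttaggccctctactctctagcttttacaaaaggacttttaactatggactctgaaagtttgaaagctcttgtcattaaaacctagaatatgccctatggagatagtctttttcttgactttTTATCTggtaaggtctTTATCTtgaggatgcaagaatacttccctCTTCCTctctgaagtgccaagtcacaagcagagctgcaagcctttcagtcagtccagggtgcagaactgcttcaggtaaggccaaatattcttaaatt

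Counted from the annotated start (base 0), an AGGAAG match began at base -9 in Pf4, -43 in Itga2b, -16 in Gp9 and -48 in Gp5, in Itga2b reading with the gene and in the other 3 against it. Itga2b had a further one at -125. Gp5 also held 2 GATA-type matches, at -93 and -77, and Pf4 held 1 at 36, past the start. Itga2b and Gp9 held no GATA-type match, so their windows do not show the paired motifs. An ETS-type match was present in 8 of the 11 restricted windows (72.7%), against 41.2% of all 32851 windows in the table. A GATA-type match was present in 5 of the 11 (45.5%), against 18.6% of all windows, and both types in 4 (36.4%), against 7.12%. Among the 29 windows of all members, 18 held an ETS-type match (62.1%) and 8 a GATA-type match (27.6%). None of the matches in the windows of members was CCGGAAG. The 11 restricted windows include that of Gp1ba, which held both types but had no signal analysed here. These are counts of letters in a window and were not tested.

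Both Sox17 probe sets, which check the genotype labels only if they lie in the altered part of the gene, had lower signals on the Sox17+/- arrays. The brighter gave 244 and 264 in wildtype liver and 139 and 124 in Sox17+/- liver (log2 difference -0.87, SE 0.20, limma adjusted p = 0.9999). The median signal of the arrays lay between 84.7 and 103. Liver identity was clear on all 4 arrays, with Alb, the serum albumin gene, at 40785 and 23777 in wildtype and 42354 and 22768 in Sox17+/- liver. Wildtype array 1 stood apart in its 3' Actb control signal, 11909.5 against 24712 to 35014 on the other arrays, and results without it are given below. The genotypes share replicate numbers, and arrays of equal number also share a code in their labelled names. What that code marks is not stated, so differences between same-numbered arrays are also given. Summed neutrophil marker signals went with the number, at 184633 and 107030 in wildtype and 183658 and 108697 in Sox17+/- liver (array 1 first). Summed hepatocyte marker signals did too, at 346391 and 205409 in wildtype and 335732 and 195056 in Sox17+/- liver. So did the highest signal of any probe set, at 56988 and 34407 in wildtype and 56859.5 and 32468 in Sox17+/- liver. The neutrophil marker Mpo differed little, at 15396 and 15195 in wildtype and 15735 and 14742 in Sox17+/- liver. Whether the sums reflect cell content or the signal range of the arrays was not tested.

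The receptor for von Willebrand factor, the GPIb-IX-V complex, tethers platelets to injured vessels. Its subunit gene Gp1bb had signals of 1200.4 and 1295 on the wildtype arrays and 910 and 1010.2 on the Sox17+/- arrays. Both Sox17+/- arrays lay below both wildtype arrays, at a ratio of means of 0.769 (log2 difference -0.37, SE 0.20). Gp9, the small subunit that stabilises the complex, had 1209.8 and 1373 in wildtype and 1050.4 and 1136 in Sox17+/- liver. Here too the genotypes did not overlap, at a ratio of 0.847. Gp5 had 869 and 1052 in wildtype and 787 and 895 in Sox17+/- liver, so that the higher Sox17+/- array lay above the lower wildtype array. A dimmer probe set of Gp1bb gave 126 and 110 against 78.7 and 88.7, again without overlap (log2 difference -0.42, SE 0.21).

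Among the integrins, the lineage-restricted subunit was lower and its widely used partner was not separated between genotypes. Itga2b, the alpha subunit of the fibrinogen receptor, had 1540.1 and 1539 on the wildtype arrays and 1349.9 and 1249 on the Sox17+/- arrays, a ratio of 0.844 (log2 difference -0.24, SE 0.20). Itgb3, its beta subunit, which endothelial and other cells also make, had 1064 and 835 in wildtype and 881 and 919 in Sox17+/- liver, with both Sox17+/- values inside the wildtype range. Fermt3, the kindlin of blood cells that activates integrins, had 10053 and 8675 in wildtype and 9663 and 9497 in Sox17+/- liver, likewise inside that range. The log2 differences were -0.07 (SE 0.22) for Itgb3 and 0.04 (SE 0.21) for Fermt3. Whether Itga2b and Itgb3 differed from each other was not tested. Itga2, the alpha subunit of a collagen receptor, was too dim to be tested, with signals of 47.0 and 103 against 56.5 and 73.9.

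Treml1 and the receptors for collagen and podoplanin, Gp6 and Clec1b, were grouped here. All 3 genes were lower in Sox17+/- liver without overlap, as 18.6% of all tested genes were. Treml1, a receptor stored in platelet alpha granules, had 894 and 874 in wildtype and 673 and 695 in Sox17+/- liver. The replicates lay close together, with 884 ± 14.5 against 684 ± 15.3 (mean ± SD, n = 2 each), a ratio of 0.774 (log2 difference -0.36, SE 0.20, 95% interval -0.86 to 0.13). Clec1b, the podoplanin receptor CLEC-2, which mouse Kupffer cells also make, had 3868 and 3569 in wildtype and 3167 and 3213 in Sox17+/- liver, a ratio of 0.858. Gp6, the collagen receptor that signals through the Fc receptor gamma chain, had 237 and 239.99 against 107 and 216. Its log2 difference of -0.59 (SE 0.34) came mostly from Sox17+/- array 1, since the difference was -1.03 between the arrays numbered 1 and -0.14 between those numbered 2.

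Receptors for soluble agonists had lower means as well, with overlap in 2 of the 3 tested. F2rl2, protease-activated receptor 3, a thrombin cofactor on mouse platelets, had 414 and 512 in wildtype and 375 and 457 in Sox17+/- liver. Tbxa2r, the thromboxane receptor, had 239 and 342 against 189.7 and 295. In both genes the same-numbered arrays went in the same direction while the genotypes overlapped. P2ry12, the ADP receptor targeted by antiplatelet drugs and also made by microglia, had 207 and 187 in wildtype and 117 and 159 in Sox17+/- liver, without overlap (log2 difference -0.48, SE 0.23). P2ry1, the other ADP receptor, was below the brightness needed for the test, with 74.5 and 152 against 37.0 and 71.0.

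**Figure D1:**
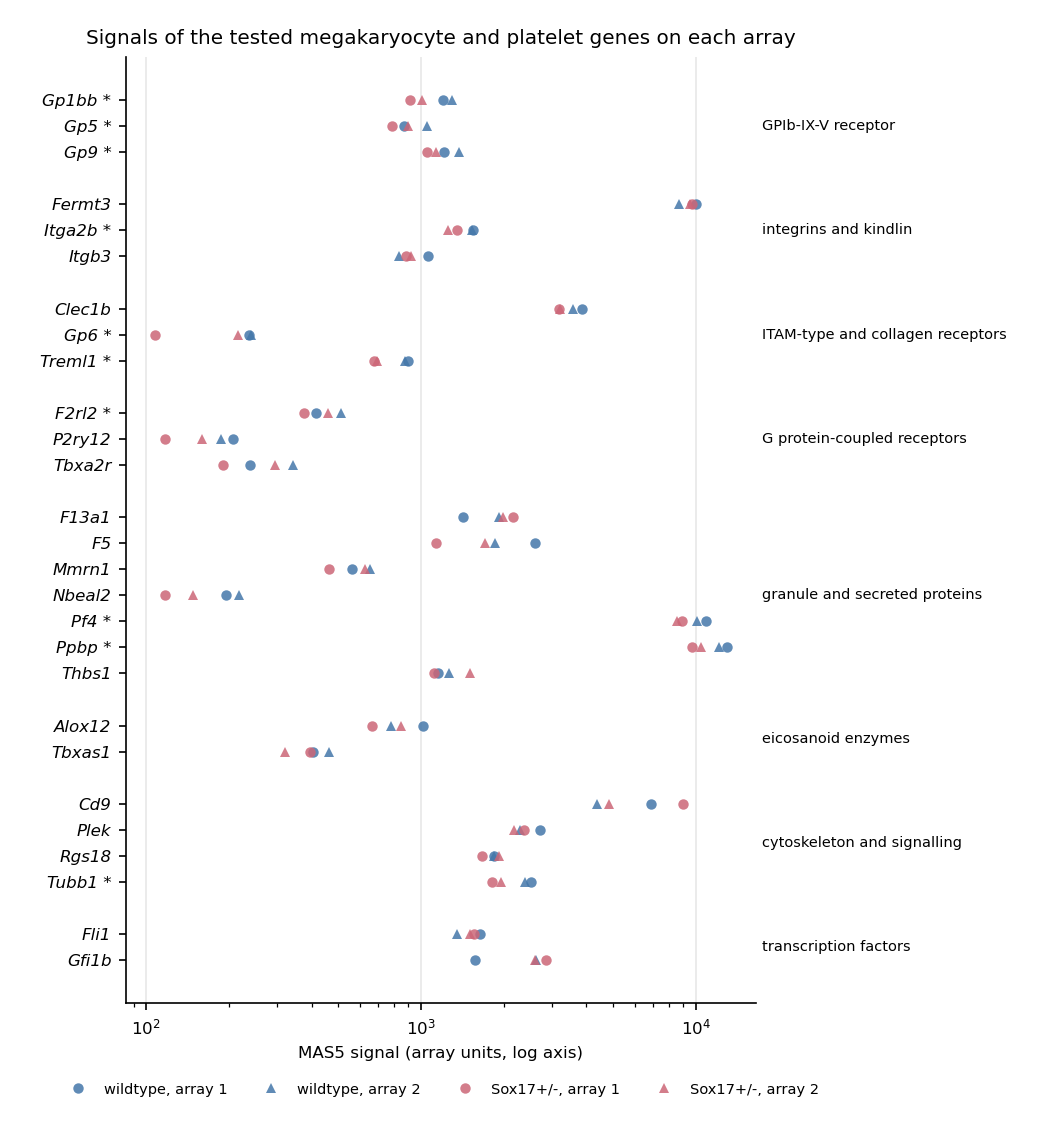
MAS5 signal (array units, log axis) of the 27 tested genes, grouped by role, with 1 point per array (blue wildtype, red Sox17+/-, circles arrays numbered 1, triangles arrays numbered 2) and * for the restricted genes. For 8 of the 10 restricted genes, such as Ppbp at 9715 and 10445 against 13023 and 12170.2, both red points lie left of both blue points. Signals of different probe sets are not on a common scale and are not to be compared between genes.

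The granule chemokines had small differences with close replicates. Ppbp, the precursor of platelet basic protein, had 13023 and 12170.2 on the wildtype arrays and 9715 and 10445 on the Sox17+/- arrays, a ratio of 0.800 (log2 difference -0.32, SE 0.20, 95% interval -0.83 to 0.19). Pf4, platelet factor 4, had 10891 and 10074.5 in wildtype and 8901 and 8572 in Sox17+/- liver, a ratio of 0.833 (log2 difference -0.26, SE 0.20, 95% interval -0.77 to 0.24). Both genes belong to a cluster of CXC chemokine genes and are stored in alpha granules. For each, the gap between the genotypes was wider than the gap between replicates, and both intervals include 0.

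The remaining granule and secreted proteins diverged. Nbeal2, the protein needed for alpha granule formation, had 196 and 218 in wildtype and 117 and 148 in Sox17+/- liver, a ratio of 0.640. Its log2 difference of -0.59 (SE 0.22) had the smallest unadjusted limma p of the 27 genes, 0.041, and it was the 1 gene of the 27 lower at an unadjusted p under 0.05, against 2.54% of all tested genes. None was higher at that level, against 1.61%. A dimmer Nbeal2 probe set went the other way, with 63.7 and 113 against 109.8 and 126.

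F5, coagulation factor V, is carried by platelets but made largely by hepatocytes. Its signals were 2598 and 1852 in wildtype and 1133 and 1714 in Sox17+/- liver, a ratio of 0.640 (log2 difference -0.65, SE 0.31). The difference was -1.19 between the arrays numbered 1 and -0.11 between those numbered 2. A second F5 probe set gave 1123 and 1251 against 780.2 and 875, with differences of -0.52 and -0.51 between same-numbered arrays. Of 10 hepatocyte markers, the clotting factor gene F9 was the 1 without overlap, with 1214 and 804 against 651 and 608 (log2 difference -0.64, SE 0.27). The clotting factor genes F10 and F2 overlapped, at log2 differences of -0.36 and -0.17, and the median of the 10 markers was -0.06. Mmrn1, multimerin 1, which binds factor V in platelets and is also made by endothelium, had 560.0 and 654 against 461 and 624, with overlap.

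F13a1, the factor XIII A chain of platelets and macrophages, went in the opposite direction, with 1420.0 and 1928 in wildtype and 2168 and 1989 in Sox17+/- liver. It was the 1 tested gene of the set with both Sox17+/- arrays above both wildtype arrays, as 14.5% of all tested genes were. The log2 difference was 0.32 (SE 0.24), made up of 0.61 between the arrays numbered 1 and 0.04 between those numbered 2. Thbs1, thrombospondin 1, made by many cells, had 1154 and 1267 against 1113 and 1512, with the wildtype values inside the Sox17+/- range.

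Of the eicosanoid enzymes, which turn arachidonic acid into platelet mediators, Tbxas1, thromboxane synthase, had 406 and 464 in wildtype and 395 and 321 in Sox17+/- liver. The genotypes did not overlap, by a narrow gap (log2 difference -0.27, SE 0.22). Alox12, platelet 12-lipoxygenase, had 1016 and 776 against 666 and 849, with overlap. Its dimmer probe set gave 122 and 119 against 83.1 and 83.5, without overlap (log2 difference -0.46, SE 0.20).

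In the cytoskeletal and signalling group, Tubb1, the beta tubulin of the platelet marginal band, had 2509 and 2395 on the wildtype arrays and 1806 and 1957 on the Sox17+/- arrays. The ratio was 0.768 and the genotypes did not overlap (log2 difference -0.38, SE 0.20, 95% interval -0.89 to 0.13). Plek, pleckstrin, the protein kinase C substrate of platelets and leukocytes, had 2713 and 2290 against 2379 and 2185. Rgs18, a regulator of G protein signalling in platelets, had 1838 and 1851 against 1662 and 1915, with the wildtype values inside the Sox17+/- range. A second Rgs18 probe set gave 1086 and 971 against 916 and 863, without overlap. Cd9, a tetraspanin of platelets and many other cells, had 6859.6 and 4356 in wildtype and 8975 and 4841 in Sox17+/- liver. On either genotype the array numbered 1 was the higher, so the Cd9 signal followed the array number more than the genotype.

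Neither transcription factor of the set had a lower mean. Gfi1b, a repressor needed for both megakaryocytes and erythroid cells, had 1576 and 2624 in wildtype and 2860 and 2603 in Sox17+/- liver, with wildtype array 1 apart from the other 3. Its log2 difference was 0.42 (SE 0.30), with 0.85 between the arrays numbered 1 and -0.01 between those numbered 2. Fli1, an ETS factor of megakaryocytes and endothelium, had 1642 and 1352 against 1564 and 1512, with the Sox17+/- values inside the wildtype range. A dimmer Fli1 probe set gave 316 and 441 against 517 and 529.7, without overlap (log2 difference 0.47, SE 0.24).

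**Figure D2:**
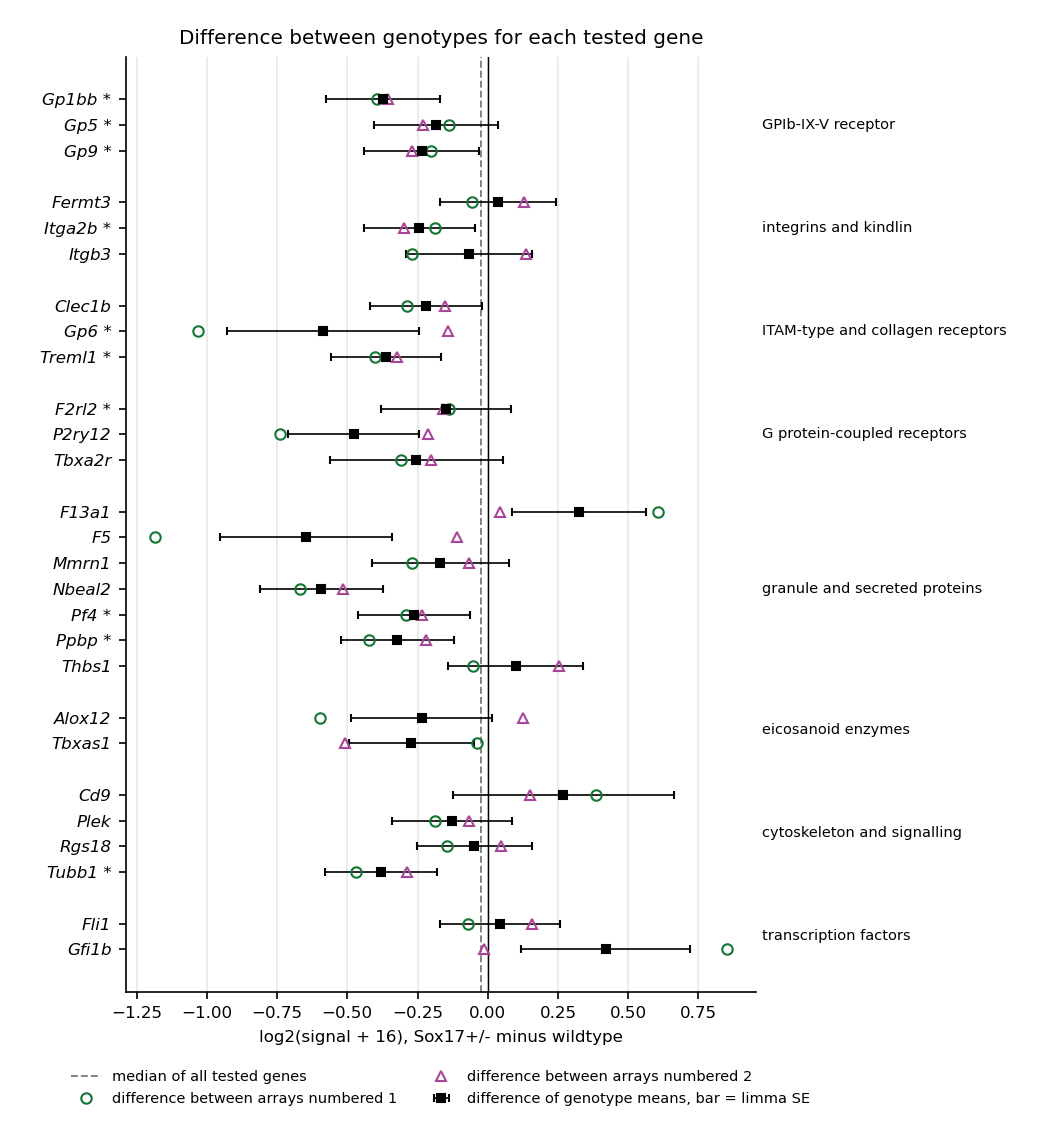
Difference in log2(signal + 16), Sox17+/- minus wildtype, for the 27 tested genes by role (* restricted genes). Squares with bars give the difference of the means of 2 arrays each with its limma SE, open circles and triangles the differences between arrays numbered 1 and 2, and the dashed line the median of all tested genes (-0.02). All 10 restricted genes lie left of 0 with both numbers, as 32.2% of all tested genes do. The differences of means of the restricted genes lie between -0.59 (Gp6) and -0.15 (F2rl2). Those of F13a1, Gfi1b, Cd9, Thbs1, Fermt3 and Fli1 lie to the right of 0.

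Across the 27 tested genes, 21 had a lower mean in Sox17+/- liver, as 54.2% of all tested genes did, and the median log2 difference was -0.24, against -0.02 over all 11685 tested genes. The Sox17+/- arrays lay below both wildtype arrays for 13 (48.1%, against 18.6% of all tested genes) and above both for 1 (3.70%, against 14.5%). With each array centred on its median, the counts were 10 below and 2 above, against 11.1% and 16.2% of all genes. None of the 27 tested genes differed by over 2-fold on the log2(signal + 16) scale. The untested P2ry1 had a ratio of means of 0.476. The medians were -0.27 between the arrays numbered 1 and -0.15 between those numbered 2. Without wildtype array 1 the median was -0.27, and without Sox17+/- array 1 it was -0.17.

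The restricted genes each had an SE between 0.20 (Treml1) and 0.34 (Gp6), so how alike their differences were cannot be read closely. Their log2 differences ranged from -0.59 to -0.15 with a median of -0.29, and their SD over genes was 0.13, against 0.34 over all tested genes. The median was -0.34 between the arrays numbered 1 and -0.25 between those numbered 2. The 17 other tested genes had a median of -0.13, with -0.19 and -0.01 between same-numbered arrays, and an SD over genes of 0.30. Of these 17, 5 lay below without overlap and 1 above, against 18.6% and 14.5% of all tested genes. All 10 restricted genes kept a lower mean with wildtype array 1, Sox17+/- array 1 or Sox17+/- array 2 left out, and 9 of 10 with wildtype array 2 left out. The exception was F2rl2, at a log2 difference of 0.0016. With 1 array left out, the count of restricted genes lower without overlap was 10 of 10 without wildtype array 1 (36.1% of all tested genes) and 8 without wildtype array 2 (37.7%). It was 8 without Sox17+/- array 1 (34.7%) and 10 without Sox17+/- array 2 (36.8%). With each array centred on its median, the count without overlap was 7 of 10 (11.1% of all tested genes). The difference between the restricted and the other genes was not tested.

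**Figure D3:**
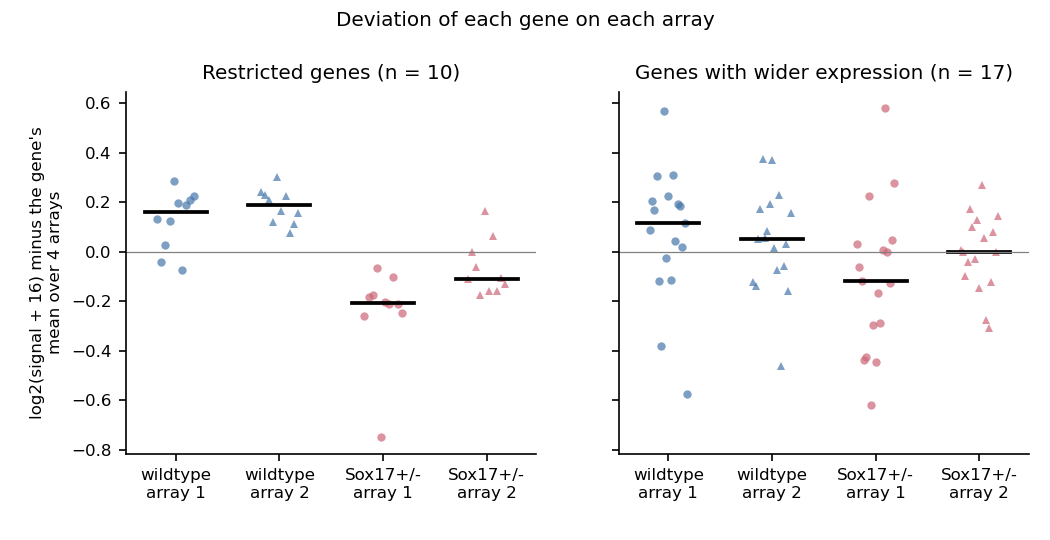
Deviation of log2(signal + 16) from the mean of the gene over 4 arrays, with 1 point per gene and the median as a bar, for the 10 restricted genes (left) and the 17 other tested genes (right). The medians of the restricted genes are 0.16 and 0.19 on the wildtype arrays and -0.21 and -0.11 on the Sox17+/- arrays, and those of the other genes are 0.12 and 0.05 against -0.12 and -0.00.

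Further probe sets of the same genes give a second reading. Of 14 other probe sets that were bright enough to be tested, standing for 11 genes, 9 had the same sign as the main one. The 5 that did not belonged to Fermt3, with 2 of its 3, Itgb3, Nbeal2 and Thbs1. Of the other Plek readings, the dimmer gave 632 and 744 against 509 and 597, without overlap, and the brighter gave 2140.5 and 1779 against 1632 and 1797, with overlap.

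Lists of genes that act upstream of, or beside, these products had medians near 0. These lists were not limited to genes restricted to megakaryocytes. Whole-liver signals do not show which cells made their transcripts, so the medians do not report on megakaryocytes alone. Over all tested genes, 18.6% were lower and 14.5% higher without overlap. Of 19 tested genes of thrombopoietin signalling and megakaryocyte regulation, 0 passed the limma test in either direction, 1 was lower without overlap and 4 were higher, and the median log2 difference was 0.05. Those with the smallest p were Meis1, a homeobox factor of progenitors and megakaryocytes, with 151 and 247 against 108 and 160.4, Ets1, an ETS factor of endothelium and lymphocytes, with 1483 and 1131 against 1741 and 1585, and Runx1, with 164 and 223 against 261 and 218. No member of this list was below an unadjusted p of 0.05. Of 33 tested genes of platelet signalling and the cytoskeleton, 0 passed, 4 were lower and 6 higher without overlap, and the median was 0.00. Its leading genes were Zyx, zyxin of focal adhesions, with 1902 and 2127 against 1533 and 1727, Syk, the kinase below Gp6 and Clec1b, with 796 and 674 against 499 and 670.4, and the adaptor gene Lat, with 613 and 675 against 542 and 538. These 3 had lower means, and 0 genes of the list were below an unadjusted p of 0.05.

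Of 26 further tested genes of platelet granules and surface, 0 passed, 4 were lower and 4 higher without overlap, and the median was 0.02. Angpt1, the Tie2 ligand stored in platelets and made by pericytes and other cells, had 204 and 153 against 71.1 and 115 (log2 difference -0.85, SE 0.29, unadjusted p = 0.030 in the limma fit). Pdgfa, a growth factor of platelets and many other cells, had 192 and 99.1 against 346 and 253 (log2 difference 1.01, SE 0.35). Rab27b, a GTPase of platelet dense granule secretion, had 520.0 and 594 against 411 and 338 (log2 difference -0.56, SE 0.22). Over the 78 tested genes of these 3 lists, 9 were lower (11.5%) and 14 higher (17.9%) without overlap, and the median was 0.00. The shares over all tested genes were 18.6% and 14.5%.

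Markers of cells that share some of these genes were read on the same arrays. For the counts below, 18.6% of all tested genes were lower and 14.5% higher without overlap. Of 5 tested mast cell and basophil markers, all had lower means, 3 without overlap, with a median of -0.67 and summed signals of 1356 and 1096 in wildtype and 822 and 691 in Sox17+/- liver. Their leading genes were Hdc, histidine decarboxylase, with 265 and 229 against 161 and 111, and the protease gene Cpa3, with 163 and 167 against 45.3 and 115. The other marker without overlap was Gata2, a GATA-family factor not limited to these cells, with 399 and 426 against 347 and 247 (log2 difference -0.47). Gata2 was not on the list of megakaryocyte regulators above. Of 12 macrophage and monocyte markers, 5 were lower and 1 higher without overlap (median -0.16), and their summed signals overlapped, with 45567 and 34963 against 41766 and 33585. Their leading genes diverged, Vsig4 with 811 and 364 against 130 and 194 and Marco with 2257 and 1738 against 5024 and 3274. Of 10 endothelial markers, 1 was lower and 4 higher (median 0.10, summed signals 9807 and 7598 against 9241 and 9266). Of 7 erythroid markers, 2 were lower and 1 higher (median 0.01), and of 10 hepatocyte markers, 1 was lower and 0 higher (median -0.06).

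Of 9 neutrophil markers, 0 were separated in either direction (median -0.01), and of 6 stem and progenitor markers, 2 were lower and 1 higher (median -0.21). Over all tested genes the shares were 18.6% lower and 14.5% higher. No marker was listed at 0. The part of the other cell types in the differences of the shared genes was not tested.

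**Figure D4:**
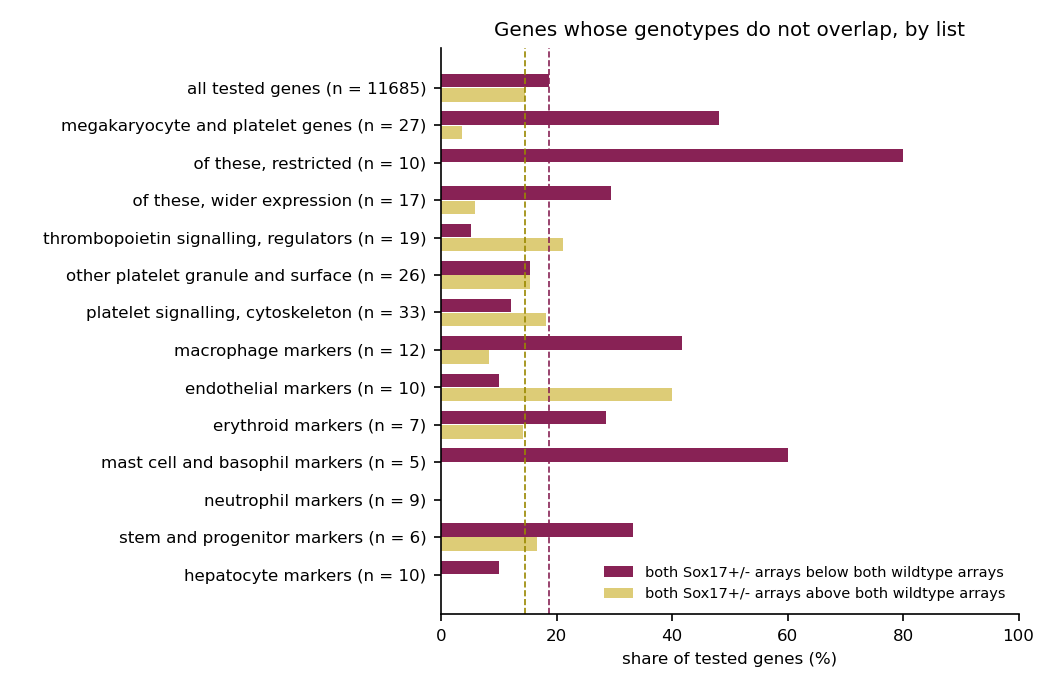
Share of tested genes (%) whose genotypes did not overlap, with both Sox17+/- arrays below (purple) or above (yellow) both wildtype arrays, for the set, its restricted and other genes, 3 related lists and 7 lists of cell markers; n is the number of tested genes and dashed lines give the shares over all tested genes (18.6% and 14.5%). The restricted genes reach 80.0% below and 0% above, and the 3 related lists lie between 5.26% and 15.4% below. The related lists were not limited to genes restricted to megakaryocytes.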

How the data were processed

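The authors made the deposited intensity values, 1 per probe set and linear in scale, with MAS5, per the submitters' processing notes. Within every array the mean without the lowest and highest 2% was 500, a common scaling that removes differences in total RNA. MAS5 reads each array alone, so dim signals are noisy. Of 45101 probe sets, 64 controls were left out, and 34945 of the remaining 45037 had 1 gene symbol in the platform annotation (932 several, 9160 none). Signals were taken as log2(signal + 16), which understates differences at low signal. Probe sets in the upper 50% by mean log2 value were tested (22519, standing for 11685 genes) with limma 3.58.1 in R 4.3.3, genotype as the only term, two-sided, Benjamini-Hochberg over all probe sets, threshold 0.05. The fit had 2 residual and 3.24 prior degrees of freedom and was tested on simulated data. The 95% intervals are from this fit.

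The members, lists, restricted set and tests were chosen with earlier results of these data known. All members are named, and of each related list up to 3 genes by the smallest limma p; for cell markers the leading genes by p, F9 and Alb are given as reference values. Alternatives were pseudocounts of 1 and 64, no filter, the brighter 25%, median centring, quantile normalization, the replicate number as a block, a trended and robust prior, leaving out each array, and averaging the probe sets of each gene. Promoter matches were counted in Python 3.11.15.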

Additional observations from a re-analysis of the deposited data

How the results depend on the processing

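In each alternative run, 0 members passed as higher and 0 as lower. Over all probe sets, 5 passed as higher with median centring and 3 with a trended and robust prior, none of them a member. With replicate number added to limma as a block, 0 probe sets passed, 742 were higher and 951 lower at an unadjusted p under 0.05, and the smallest adjusted p of a member was 0.635. Same-numbered arrays deviated together (r = 0.383 across 22519 probe sets), and their array names share a code, but no source states what it marks and there are only 2 pairs. The median difference of the members stayed between -0.28 and -0.17, and with all 4 arrays the count of members lower without overlap lay between 10 and 15 (11.1% to 19.2% of all genes), or was 9 of 21 among the brighter 25% of probe sets (16.4%). With 1 array left out, where 1 array is set against 2 and more genes separate by construction, it lay between 14 and 20 (34.7% to 37.7% of all genes), and the count higher between 2 and 5 (29.2% to 31.4%). The count higher was 2 with median centring and 2 with the probe sets of a gene averaged. Signs turned for 9 members in at least 1 alternative, Cd9 and Tbxa2r among them with main differences of 0.27 and -0.25. With the probe sets of each gene averaged, Thbs1 was at -0.025 and Fermt3 at -0.063. With 1 array left out in turn, the range was -0.12 to 0.32 for Thbs1, -0.070 to 0.14 for Fermt3, -0.17 to 0.71 for Cd9, -0.094 to 0.18 for Fli1, -0.24 to 0.11 for Itgb3, -0.15 to 0.054 for Rgs18, -0.55 to 0.045 for Tbxa2r, -0.38 to 0.043 for Mmrn1 and -0.30 to 0.0016 for F2rl2. A lone array is assumed there to vary like the others.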
